A study of Homo sapiens with 6 samples.

Results

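Stand-alone lncRNA promoters are the start sites of long noncoding RNA genes that lie away from the promoter of any protein-coding gene. The members were taken from GENCODE release 44 as lncRNA gene records on chromosomes 1 to 22 and X whose TSS (the 5′ end of the gene record) was more than 2 kb from the TSS of every protein-coding gene record. The rule gave 15427 TSSs of 18756 lncRNA genes and of 62062 gene TSSs in all. A promoter was called open in a library when an open chromatin region covered the TSS.

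Accessibility was assayed by ATAC-seq, in which a transposase inserts sequencing adapters into DNA that is free of nucleosomes. The cells were MCF10A, a non-tumorigenic human mammary epithelial line listed as wild type. All cells were first held for 30 min in a phosphate-free HEPES-buffered saline, and then received 50 µM of the zinc chelator tris(2-pyridylmethyl)amine (TPA), 30 µM ZnCl2 or no treatment (control) for a further 30 min. TPA here is the chelator and not the phorbol ester of the same abbreviation. There were 2 libraries per condition and 6 in all, each from 1 cell line, and the sources differ on whether the 2 libraries of a condition were separate cultures, so that the spread between them may be technical.

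LncRNA genes are transcribed by RNA polymerase II and their transcripts are often capped, spliced and polyadenylated, but they are not translated into long proteins. Many start next to a coding promoter and share its open chromatin. Those that stand alone have promoters of their own, as a group are more restricted to particular cell types than coding genes, and include hosts of small nucleolar RNAs and microRNAs as well as abundant nuclear RNAs such as MALAT1 and NEAT1.

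The promoters of 8 members that the results return to are printed here as 300 bases of hg38, from 250 bases before the TSS, read 5′ to 3′ on the strand of the gene. Capitals mark matches of 1 motif per promoter on either strand. The motifs were the GC box (GGGCGG, the letters bound by Sp1-like zinc finger proteins), the CCAAT box (CCAAT, bound by NF-Y), the AP-1 site (TGANTCA, bound by Fos and Jun proteins) and the metal response element (TGCACNC or TGCGCNC, the core bound by the zinc sensor MTF-1). Over all 62062 gene TSSs, the GC box was in 27.5% of windows of this length, the CCAAT box in 36.4%, the AP-1 site in 8.19% and the metal response element in 25.8%. Matches of the other motifs in a window are not marked. The windows of MALAT1, DANCR and ENSG00000290989 also held 1 metal response element each, and those of DANCR and SCAANT1 held 2 GC boxes each.

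MALAT1 and DANCR were open in every library and had CpG-rich promoters, and MIR205HG was open in every library with 1 CpG in its window. MALAT1 lies outside coding genes at chr11:65497390-65497689 (plus strand) with 5 GC boxes. DANCR, a host of small nucleolar RNAs, lies outside coding genes at chr4:52712075-52712374 (plus strand) with 4 CCAAT boxes. MIR205HG, the host of the epithelial microRNA miR-205, lies outside coding genes at chr1:209428567-209428866 (plus strand) with 1 CCAAT box.
MALAT1: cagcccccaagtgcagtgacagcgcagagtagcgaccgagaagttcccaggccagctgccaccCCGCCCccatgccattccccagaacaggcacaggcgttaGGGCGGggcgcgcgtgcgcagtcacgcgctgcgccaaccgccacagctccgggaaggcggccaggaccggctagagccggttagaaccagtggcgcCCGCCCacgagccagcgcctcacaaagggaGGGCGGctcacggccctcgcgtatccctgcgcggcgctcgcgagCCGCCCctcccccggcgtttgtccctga
DANCR: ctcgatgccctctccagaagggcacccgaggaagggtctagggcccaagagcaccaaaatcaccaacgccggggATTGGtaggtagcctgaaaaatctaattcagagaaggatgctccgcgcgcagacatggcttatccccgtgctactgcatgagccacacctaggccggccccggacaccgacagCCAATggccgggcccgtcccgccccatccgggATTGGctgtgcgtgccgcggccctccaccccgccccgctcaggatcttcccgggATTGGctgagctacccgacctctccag
MIR205HG: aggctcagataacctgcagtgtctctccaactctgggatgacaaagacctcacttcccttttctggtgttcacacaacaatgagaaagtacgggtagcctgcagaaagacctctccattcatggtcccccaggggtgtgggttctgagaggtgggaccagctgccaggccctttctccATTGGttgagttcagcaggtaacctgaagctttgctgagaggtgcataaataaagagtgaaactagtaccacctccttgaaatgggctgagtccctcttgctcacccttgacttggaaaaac

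The next set shows promoters that differed between TPA and control libraries. ENSG00000290989 (chr1:223992493-223992792, plus strand, outside coding genes, 2 GC boxes) was covered in both control libraries and in neither TPA library. SCAANT1 (chr3:63911723-63912022, minus strand, inside a coding gene on the opposite strand, 3 metal response elements, which partly overlap) had a lower percentile of the region score within the list with TPA, and PRKG2-AS1 (chr4:81164672-81164971, plus strand, inside a coding gene on the opposite strand, 1 AP-1 site) had a higher one.
ENSG00000290989: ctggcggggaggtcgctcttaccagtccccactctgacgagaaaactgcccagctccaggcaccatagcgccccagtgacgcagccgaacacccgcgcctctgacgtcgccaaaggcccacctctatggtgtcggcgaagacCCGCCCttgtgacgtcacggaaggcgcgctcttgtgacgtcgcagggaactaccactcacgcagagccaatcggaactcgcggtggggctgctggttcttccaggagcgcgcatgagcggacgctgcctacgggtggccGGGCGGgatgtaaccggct
SCAANT1: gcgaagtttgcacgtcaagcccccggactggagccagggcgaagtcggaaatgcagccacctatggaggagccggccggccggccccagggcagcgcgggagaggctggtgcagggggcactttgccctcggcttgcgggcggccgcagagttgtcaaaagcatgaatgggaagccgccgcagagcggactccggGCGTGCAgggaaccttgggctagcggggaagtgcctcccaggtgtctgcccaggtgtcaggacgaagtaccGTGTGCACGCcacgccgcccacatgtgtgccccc
PRKG2-AS1: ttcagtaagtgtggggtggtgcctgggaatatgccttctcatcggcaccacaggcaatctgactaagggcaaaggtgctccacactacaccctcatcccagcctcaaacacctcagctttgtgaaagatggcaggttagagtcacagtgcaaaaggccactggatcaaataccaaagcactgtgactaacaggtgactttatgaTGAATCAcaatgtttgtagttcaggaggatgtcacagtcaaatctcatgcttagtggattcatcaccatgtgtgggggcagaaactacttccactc

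The last pair was chosen for ZnCl2. LINC01132 (chr1:234723792-234724091, plus strand, outside coding genes, 1 AP-1 site) had a lower percentile of the region score within the list in both ZnCl2 libraries than in either control library. SNHG12, a host of small nucleolar RNAs (chr1:28583083-28583382, minus strand, outside coding genes, 1 metal response element), was covered in both TPA and both ZnCl2 libraries, while the control regions there stopped short of the TSS.
LINC01132: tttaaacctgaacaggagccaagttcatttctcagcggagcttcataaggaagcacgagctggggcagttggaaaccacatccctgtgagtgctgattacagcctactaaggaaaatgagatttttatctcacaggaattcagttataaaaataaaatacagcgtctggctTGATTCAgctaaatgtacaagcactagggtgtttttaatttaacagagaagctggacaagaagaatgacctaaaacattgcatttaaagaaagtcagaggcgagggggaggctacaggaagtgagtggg
SNHG12: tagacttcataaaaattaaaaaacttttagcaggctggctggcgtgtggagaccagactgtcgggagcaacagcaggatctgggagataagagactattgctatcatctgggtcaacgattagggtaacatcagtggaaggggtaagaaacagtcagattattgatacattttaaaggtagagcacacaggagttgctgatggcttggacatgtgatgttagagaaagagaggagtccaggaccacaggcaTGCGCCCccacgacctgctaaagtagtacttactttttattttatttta

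The lists of open regions differed in length. On the chromosomes used, the control libraries held 25025 and 44637 regions, the TPA libraries 35900 and 41374, and the ZnCl2 libraries 38055 and 18883. The lists carry no read counts, so that sequencing depth is unknown, and a TSS that was not covered cannot be called closed. Each region carries a score, which was turned into a percentile (the percent of regions of the same list with a lower score). As the longest and the shortest list differ, counts were also made from the 18883 highest scoring regions of every library, referred to as equal lists.

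The labelled cell type was checked against marker genes. Among 12 coding genes of basal mammary epithelium, 11 were open at the TSS in at least 1 library, among them LAMB3 and ITGB4 (a laminin chain and an integrin of the basement membrane contact), which were open in all 6. KRT5, KRT6A, KRT17 and EGFR were open in 5 libraries and KRT14 in 4, while the TSS of the TP63 gene record was open in none. The cadherin gene CDH3 was open in 4 libraries at percentiles of only 6.36 to 18.6. CDH1, the epithelial cadherin, was open in 3, both TPA libraries and ZnCl2 1, and in neither control library. Its region was 16990 bp wide in TPA 2, 1900 bp in TPA 1 and 2750 bp in ZnCl2 1. With equal lists (the same number of top regions per library, see above) CDH1 was open in only 1 library. EPCAM, an epithelial adhesion gene, was open in TPA 2 alone, under a region of 18450 bp. Of 13 coding markers of other cell types, 12 were open in none, and COL1A1 was open in 1 library, control 2. Among 14 stand-alone lncRNAs restricted to other tissues, 12 were open in none, PEG13 was open in 1 and LINC02381 in 3.

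Few stand-alone lncRNA promoters were open. Of the 15427 members, 1249 were open in control 1 and 2113 in control 2, which is 8.10% and 13.7%. The TPA libraries had 1519 (9.85%) and 1768 (11.5%) open members, and the ZnCl2 libraries 1834 (11.9%) and 1248 (8.09%). The 3 conditions overlapped, and the 2 control libraries lay farther apart than any 2 condition means. The mean share was 10.9% ± 3.96 in control, 10.7% ± 1.14 with TPA and 9.99% ± 2.69 with ZnCl2 (SD, n = 2 each).

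Neither treatment moved the share of open members beyond the spread between libraries. The difference from control was -0.243 percentage points with TPA (two-sided exact permutation test, p = 1) and -0.908 points with ZnCl2 (p = 0.667, exact permutation test). With 2 libraries against 2 the smallest p this test allows is 0.333, so that no treatment comparison here could pass a threshold of 0.05. With equal lists the TPA difference was -0.791 points (exact permutation test, p = 0.667). The ZnCl2 difference there turned to 0.444 points (exact permutation test, p = 1).

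Members were open far less often than the other gene classes in the same libraries. Protein-coding TSSs (n = 19970) were open in 46.7% and 57.7% of cases in the control libraries, 50.6% and 52.8% in the TPA libraries, and 55.9% and 43.7% in the ZnCl2 libraries. LncRNA TSSs within 2 kb of a coding TSS (n = 3329) were open in 56.7% to 72.2%. The member share differed from the coding share by -40.7 points (mean of the within-library differences, lower in 6 of 6 libraries, two-sided exact sign-flip permutation test, p = 0.0312). The difference from the lncRNA TSSs near coding genes was -53.7 points, again in 6 of 6 libraries (p = 0.0312, exact permutation test). This p is the smallest that 6 libraries allow.

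**Figure D1:**
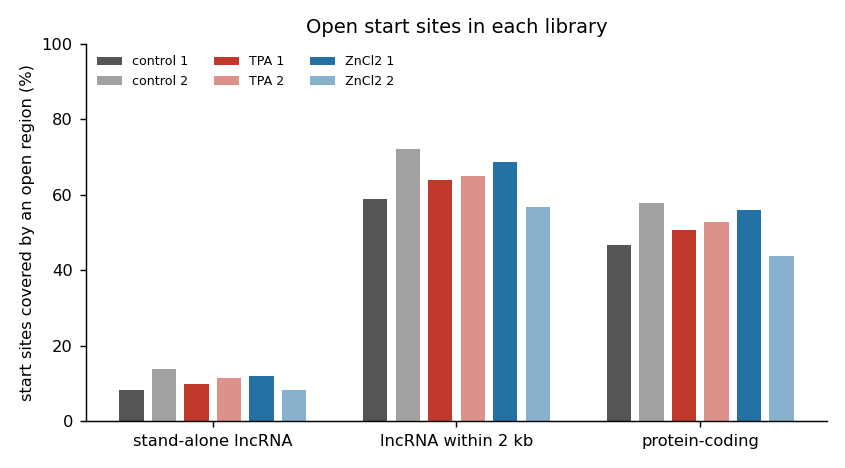
Percent of TSSs covered by an open region (vertical axis) in each of the 6 libraries, for stand-alone lncRNA genes (n = 15427), lncRNA genes within 2 kb of a coding TSS (n = 3329) and protein-coding genes (n = 19970); each bar is 1 library. The stand-alone lncRNA bars run from 8.09% to 13.7%, all below the lowest bar of the other classes, 43.7%.

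The open regions over members were also narrower and scored lower. The median width over open members was 320 bp less than over open coding TSSs (mean difference -320 bp, narrower in 6 of 6 libraries, exact sign-flip permutation test, p = 0.0312). The median percentile was 9.85 points lower (mean difference -9.85, in 6 of 6 libraries, p = 0.0312, exact permutation test). From equal lists the percentile difference was -6.04 points and the width difference -229 bp. With the upper 50% of each list they were -4.84 points and -251 bp. Among members open in every library, the median width was 1510 and 2540 bp in the control libraries, 1620 and 1660 bp in the TPA libraries, and 2005 and 2350 bp in the ZnCl2 libraries. The widths of each treatment lay within the range of the 2 control libraries, with a difference from control of -385 bp for TPA and 152.5 bp for ZnCl2 (exact permutation test, p = 1 for each). The median percentile of these members was 69.2 and 82.6 in the control lists, 76.0 and 79.7 in the TPA lists, and 80.2 and 60.5 in the ZnCl2 lists. It overlapped between conditions as well, with differences of 1.98 points for TPA (exact permutation test, p = 1) and -5.55 points for ZnCl2 (exact permutation test, p = 0.667). With equal lists these differences were 0.679 and 1.92 points, so that the ZnCl2 one turned its direction. With all regions, leaving out single libraries turned the TPA difference to -5.10 points (without control 1) and the ZnCl2 difference to 1.15 points (without control 2) and 5.51 points (without ZnCl2 2).

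Coverage peaked at the TSS of the members in all 6 libraries. It was 4.03 and 2.67 times the mean coverage at 10 kb to either side in the control libraries, 3.47 and 2.90 times with TPA, and 3.17 and 3.21 times with ZnCl2. The 2 control libraries gave the highest and the lowest value. Over members open in all libraries, the centre of the region lay 206.5 to 331.5 bp from the TSS in the median, on either side alike, with a median signed offset of -5.5 to 6.5 bp. Over coding TSSs the distance was 229.5 to 372 bp, and the median signed offset was 139 to 237.5 bp downstream.

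**Figure D2:**
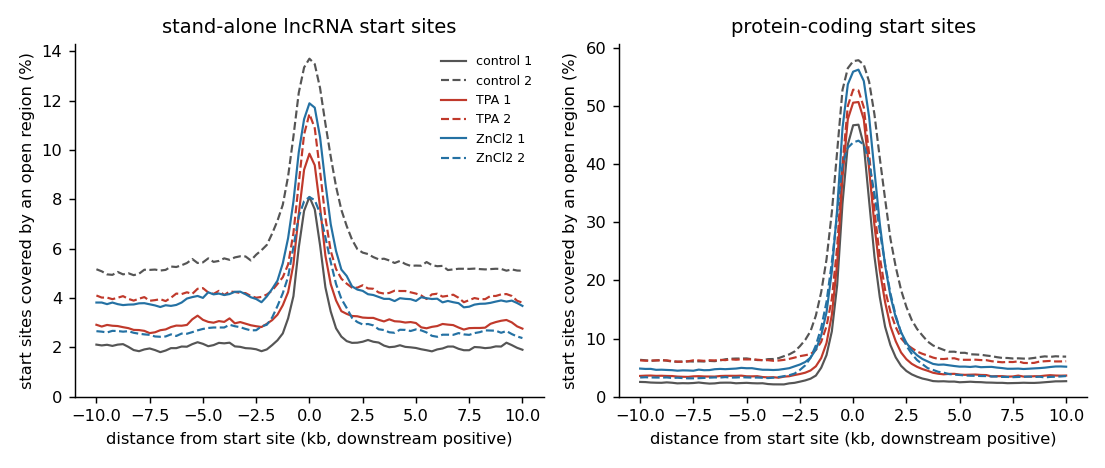
Percent of TSSs covered by an open region (vertical axis, on a separate scale in each panel) by distance from the TSS in kb (horizontal axis, downstream positive), for stand-alone lncRNA genes on the left and protein-coding genes on the right; each line is 1 library. The members peak at the TSS between 8.09% and 13.7% and fall to between 1.91% and 5.17% at 10 kb to either side.

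A core of members was open whatever the condition. Of the 15427 members, 920 (5.96%) were open in all 6 libraries, against 17.6% of all gene TSSs and 39.5% of coding TSSs. A further 1565 were open in 1 to 5 libraries, and 12942 (83.9%) were open in none. Of the 523 members open in only 1 library, 218 were open in control 2, 164 in TPA 2 and 97 in ZnCl2 1, and 2 in control 1. With equal lists, 684 members (4.43%) were open in all 6 libraries, against 13.9% of all gene TSSs.

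The 920 members lay in 824 distinct regions, since start sites that lie close together can share one. In 54 of them the region also reached a coding TSS in at least 1 library, and 237 lay within 2 kb of the start of a coding transcript other than the one that sets the gene record. This leaves 654 that were over 2 kb from every coding transcript start and whose region reached no coding TSS. Just outside the distance of the rule, at 1 to 2 kb from a coding TSS, 22.9% of 664 lncRNA TSSs were open in all libraries, and just inside it, at 2 to 3 kb, 9.46% of 370.

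Open members were richer in CpG and in GC boxes than the rest. A promoter was called CpG-rich when its 300 bp window had at least 50% GC and an observed to expected CpG ratio of at least 0.6. CpG-rich windows made up 11.2% of the members, and 31.4% of those were open in all libraries, against 2.74% of the others. Median GC content was 62.0% in members open in all libraries, 53.3% in those open in 1 to 5, and 45.7% in those open in none. GC boxes followed the same order, with 55.7%, 27.9% and 10.5% of windows, and so did metal response elements with 38.3%, 25.1% and 19.5%.

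Members also stayed below coding TSSs of like composition, a split added after the data were seen. Among CpG-rich promoters the share of open members differed from that of coding TSSs by -29.9 points (range -31.6 to -25.7, lower in 6 of 6 libraries, exact sign-flip permutation test, p = 0.0312). Among the other promoters the difference was -16.3 points (6 of 6 libraries, p = 0.0312, exact permutation test).

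Annotation gave further structure. Members at 2 to 5 kb from a coding TSS were open in all libraries in 9.15% of cases, falling through 8.82% at 5 to 10 kb, 7.94% at 10 to 50 kb and 5.74% at 50 to 100 kb to 3.17% beyond 100 kb. Genes named as divergent transcripts (-DT) were open in all libraries in 51.4% of 37 cases, small RNA hosts in 21.1% of 95 and antisense genes (-AS) in 11.5% of 1204. Long intergenic genes with a LINC number were open in 5.39% of 2172 cases, and those known only by an identifier in 4.79% of 11154. A TSS inside a coding gene was open in 7.72% of 4119 cases on the opposite strand and in 3.07% of 1464 on the same strand. Genes that RefSeq also lists were open in 9.15% of 4009 cases, and those with a GENCODE tag for overlap with a pseudogene in 12.6% of 738. By chromosome the share ran from 1.74% of 287 members on X to 10.2% of 1272 on chromosome 1, where coding TSSs gave 15.6% and 44.3%.

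**Figure D3:**
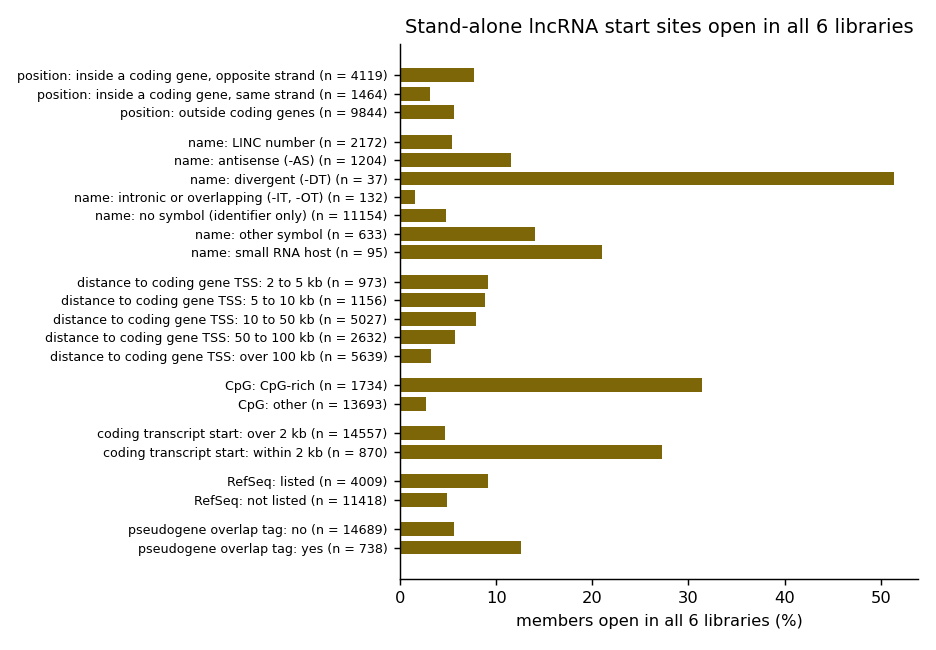
Percent of stand-alone lncRNA TSSs open in all 6 libraries (horizontal axis), by position, name, distance to a coding gene TSS, base composition, distance to a coding transcript start, presence in RefSeq and the GENCODE tag for overlap with a pseudogene; n is the number of members in each class. The divergent transcripts (51.4%) and the CpG-rich promoters (31.4%) have the longest bars, and the intronic or overlapping transcripts (1.52%) the shortest.

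Small RNA hosts were then taken list by list. Of 20 stand-alone hosts of small nucleolar RNAs, which guide the chemical modification of ribosomal RNA, 8 were open in all libraries, 10 in some and 2 in none. The 8 were SNHG28, DANCR, SNHG8, SNHG15, SNHG21, SNHG29, SNHG30 and SNHG25. DANCR had percentiles of 89.3 and 95.8 in control, 96.1 and 90.4 with TPA, and 96.6 and 95.9 after ZnCl2, so that its region was among the upper scores of every list. SNHG11 was missed only in ZnCl2 2, the shortest list.

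Of 77 stand-alone microRNA hosts, 13 were open in all libraries, 12 in some and 52 in none. MIRLET7A1HG, a host of let-7 microRNAs, had percentiles of 96.4 and 98.7 in control, 98.8 and 97.7 with TPA, and 98.4 and 96.7 with ZnCl2. MIR210HG, the host of the hypoxia-linked miR-210, had 97.4 and 97.8 in control, 94.9 and 95.3 with TPA, and 98.1 and 95.3 with ZnCl2. Its region was 34850 bp wide in TPA 2, where it reached a coding TSS, and 1970 to 5740 bp wide in the other libraries, so that the TPA 2 value is not for a like region. MIR17HG, the host of the growth-linked miR-17 to miR-92 cluster, MIR9-1HG and MIR181A1HG were also open in all libraries.

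MIR205HG was the 1 member of the 13 on the epithelial and breast list that was open in all libraries. Its percentile was 91.3 and 95.8 in control, 95.5 and 94.1 with TPA, and 92.1 and 62.1 with ZnCl2, with ZnCl2 2 the low one. LUCAT1 was open in 5 libraries, and MIR200CHG, the host of the epithelial miR-200c, was also open in 5. MIR222HG was open in 4 and MIR31HG in 2, and the other 8 were open in none. On the list linked to p53, DINOL and NEAT1 were open in all libraries and 3 of 5 members in none. DINOL lies 2099 bp from the nearest coding TSS, its region reached a coding TSS in 3 libraries, and with equal lists it was open in 4 libraries and lost with TPA.

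MALAT1, NEAT1 and KCNQ1OT1 were the 3 of 9 nuclear and housekeeping members open in all libraries. NEAT1, the scaffold RNA of paraspeckles, had percentiles of 81.7 and 85.4 in control, 83.6 and 74.7 with TPA, and 76.3 and 60.5 with ZnCl2. MALAT1, an abundant RNA of nuclear speckles, had 45.2 and 64.7 in control, 78.4 and 87.9 with TPA, and 15.8 and 4.90 with ZnCl2. Counted from the top of each list, the MALAT1 region ranked 13044 and 15326 in control, 7446 and 4801 in the TPA lists, and 30971 and 17107 in the ZnCl2 lists. The 3 conditions did not overlap in percentile, and the region was above both controls with TPA and below both with ZnCl2. By rank, too, the region stood lower in both ZnCl2 lists than in either control list, and the equal list of ZnCl2 1 no longer held it. NORAD was open in 5 libraries, TERC in 5, JPX in 4, FTX in 3 and CYTOR in 1.

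The members with the highest scores were not the well-known RNAs. By the naming rule, the 12 members with the highest lowest percentile over the 6 libraries were ENSG00000261135, FAM86DP, LINC02018, ENSG00000290548, ENSG00000290832, ENSG00000286895, ENSG00000290940, ENSG00000276216, ENSG00000290121, MRNIP-DT, ENSG00000248787 and FAM86JP. They lay in 9 regions, since LINC02018 shared one with FAM86DP, ENSG00000286895 with ENSG00000290940, and ENSG00000248787 with FAM86JP in all 6 libraries. All 12 had CpG-rich promoters. ENSG00000261135 had percentiles of 99.9 in the control libraries, the TPA libraries and ZnCl2 1, and of 99.7 in ZnCl2 2. Its region was 35370 bp wide in TPA 2 and 1530 to 2090 bp wide in the other libraries. The TPA 2 value is thus not for a like region. In 8 of the 12, including ENSG00000290832 with 6 of 6, at least 1 of the 6 pieces of 50 bp that make up the window occurs more than once in hg38, so that reads from copies may not be told apart. LINC02018, ENSG00000286895, ENSG00000290940 and MRNIP-DT had no such piece in their own windows, though the window of FAM86DP, in the region of LINC02018, had 1, and the percentile of MRNIP-DT was 99.3 and 99.6 in control, 99.0 and 99.5 with TPA, and 99.3 and 99.1 with ZnCl2. MRNIP-DT starts 179 bp from the start of a coding transcript, and its region of 26670 bp in TPA 2 reached a coding TSS.

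Few members were open in both libraries of one condition and in neither of another. Members covered in both libraries of a treatment and in neither control library were counted as gained, and members with the opposite pattern as lost. With TPA, 41 members were gained (0.266%, against 0.203% of all gene TSSs) and 46 were lost (0.298%, against 0.354%). With ZnCl2, 14 were gained (0.0908%, against 0.0902%) and 20 were lost (0.130%, against 0.102%). The shares were close to those over all gene TSSs. They are shares of all TSSs, open or not, and are not rates among open ones. Members were open in all libraries less often (5.96%, against 17.6% of all gene TSSs). A loss can fall only on a TSS open in both control libraries, which held for 1244 members. The TPA and the ZnCl2 comparison used the same 2 control libraries.

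The calls depended on single libraries and on the length of the lists. TPA gains numbered 294 without control 2, 212 without TPA 1 and 65 without TPA 2, and TPA losses 482 without control 1, 70 without TPA 1 and 97 without TPA 2. ZnCl2 gains numbered 155 without control 2, 41 without ZnCl2 1 and 135 without ZnCl2 2, and ZnCl2 losses 335 without control 1, 232 without ZnCl2 1 and 50 without ZnCl2 2. With equal lists, TPA gained 33 members (0.214%, against 0.322% of all gene TSSs) and lost 99 (0.642%, against 1.62%). ZnCl2 gained 60 (0.389%, against 0.498%) and lost 37 (0.240%, against 0.324%). These too are shares of all TSSs and not rates among open ones. With equal lists 957 members were open in both control libraries. Only 8 of the TPA gains, 26 of the TPA losses, 12 of the ZnCl2 gains and 11 of the ZnCl2 losses were found with both kinds of list.

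Among the TPA gains, wide regions stood out. The region was over 10 kb wide in 9 of the 41, and in TPA 2 such regions covered 206 of 1768 open members (11.7%), against 29 of 1519 in TPA 1, 1 and 40 in the control libraries, and 6 and 19 in the ZnCl2 libraries. ENSG00000272787 and ENSG00000290199, 2 starts near the GSTT2 and DDTL genes, shared regions of 28340 and 28370 bp in the TPA libraries. A region of 29410 bp also covered them in ZnCl2 1. ENSG00000290199 starts 2 bp from the start of a coding transcript. It was not gained when a region within 500 bp of the TSS counted as open. ENSG00000254846 near PARP2 had 25740 and 25550 bp, ENSG00000257475 near EIF4B 30920 and 28570 bp, and ENSG00000257472 14620 and 14810 bp. The TSSs of these 3 were covered in TPA libraries alone. At all 5 TSSs, however, both control libraries held a region that overlapped the wide one and stopped short of the TSS, and at all but ENSG00000257472 the wide region also reached a coding TSS. Their part in the gained count was not tested beyond these widths.

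MFSD14CP was the 1 narrow member named by the rule among the TPA gains, with regions of 1520 and 1110 bp, and it was also covered in both ZnCl2 libraries (percentiles 81.7 and 53.2). Its window held 3 repeated pieces. SNHG12 was likewise covered in both TPA libraries, with percentiles of 69.2 and 72.9, and in both ZnCl2 libraries, with 80.6 and 55.2. Its regions were 24590 and 11100 bp wide in the TPA libraries and 3820 and 9970 bp wide in the ZnCl2 libraries, and in 1 library the region reached a coding TSS. Both control libraries held a region that overlapped these without covering the TSS. Other gained members with a symbol were AATBC, HOXC-AS1, IGFL2-AS1, LINC01078, LINC01363, LINC02518, LINC02895, SNHG27 and UNC5B-AS1. SNHG27 had a percentile of 3.4 in both TPA libraries, at the bottom of the lists. An AP-1 site was in 29.3% of the 41 gained windows and in 6.52% of the 46 lost ones. Its share was 13.2% over members open in 1 to 5 libraries. A metal response element was in 7.32% of the gained and 30.4% of the lost windows, against 25.1% of those open in 1 to 5. CpG-rich windows made up 14.6% of the gained and 39.1% of the lost members, against 25.4%.

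In 31 of the 41 TPA gains no control region overlapped the gained region, and in 6 both controls had a region there that stopped short of the TSS. For the 46 TPA losses, both TPA libraries held a region that overlapped the control region without covering the TSS in 24, and neither did in 20. With equal lists the gained region overlapped one of the full list in both controls in 25 of 33 gains and in neither in 2, and the lost region overlapped one in both TPA libraries in 86 of 99 losses. ENSG00000290989, whose sequence is printed above, had percentiles of 98.1 and 98.9 in control and 98.5 and 93.9 with ZnCl2, and it was covered in neither TPA library. ENSG00000291068 starts from the same region on the other strand. Its window held 2 repeated pieces, while that of ENSG00000290989 held none. The TPA libraries thus lacked a region that stood in the upper part of the other 4 lists.

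ENSG00000291186 was lost with TPA in the same way, with 99.5 in both control libraries and 99.2 and 99.1 with ZnCl2. ENSG00000287624, inside a coding gene near HDGF, had 98.8 and 98.7 in control and 97.2 and 90.2 with ZnCl2, but a region within 500 bp of its TSS was present with TPA. Its TSS is 1698 bp from a coding transcript start, and its region reached a coding TSS in all 4 libraries where it was open. ENSG00000289929 and FAM66A completed the members named by the rule, with 5 and 6 repeated pieces, and at FAM66A both TPA libraries held an overlapping region, and it was not lost when a region within 500 bp counted. Symbols among the other losses were ABALON, ADPGK-AS1, CCNY-AS1, LINC00324, LINC00482, LINC01273, LINC01303, LINC01902, LINC02595, LINC02643, LSP1P5, PSD2-AS1, RAP2C-AS1 and RERE-AS1.

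Of the 14 ZnCl2 gains, 7 (50.0%) had a window with at least 1 repeated piece. The same held for 273 of the 1565 members open in 1 to 5 libraries and for 110 of the 920 open in all. With equal lists it held for 19 of the 60 ZnCl2 gains (31.7%). ENSG00000291259, UBE2Q2P2 and MIR1302-2HG, which led by percentile with 99.9 and 99.7, 99.9 and 99.6, and 99.8 and 98.9 in the 2 ZnCl2 libraries, held 6, 6 and 5 such pieces. None of these 3 was gained when a region within 500 bp of the TSS counted as open. The region of UBE2Q2P2 overlapped one in both control libraries, that of the other 2 overlapped one in 1 control library, and ENSG00000291259 was also covered in TPA 1. ENSG00000287411 and ENSG00000240240 held 5 and 4. ENSG00000223774 near SHISA4, with no repeated piece, was covered by regions of 5160 and 4570 bp with percentiles of 91.1 and 71.8, and both control libraries held a region that overlapped these without covering the TSS.

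Of the 20 ZnCl2 losses, GLIDR led with percentiles of 97.7 and 99.4 in control and 99.5 and 99.6 with TPA, and its window held 5 repeated pieces. ENSG00000223834 had 84.1 and 87.5 in control and 78.2 in TPA 2, and no ZnCl2 region covered its TSS, although one lay within 500 bp. ENSG00000274507 inside PYGB had 88.8 and 94.8 in control, and ENSG00000224818 near PHLDA3 had 52.4 and 94.0, and the TSSs of both were covered in the control libraries alone. All 4 treated libraries held a region that overlapped the control region at both TSSs without covering them. The control region reached a coding TSS in both libraries at ENSG00000274507 and in 1 at ENSG00000224818. ENSG00000224818 was not lost with ZnCl2 when a region within 500 bp of the TSS counted as open. ENSG00000289914 and BMS1P4 were the others named by the rule, and neither was lost with the upper 50% of each list. ENSG00000289914 was also not lost when a region within 500 bp of the TSS counted as open. LINC01116, JPX, GLUD1P3, TILRLS and BMS1P4-AGAP5 were also lost, and RERE-AS1 was lost with both treatments. JPX had 4.6 and 61.2 in control and 43.4 and 42.0 with TPA, and it was not called lost with equal lists. The 20 losses lay in 17 distinct regions. The mean region width was 2110 bp at BMS1P4, BMS1P4-AGAP5 and GLUD1P3 alike.

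The percentile of regions that stayed open gave a finer view. It was compared over the 684 members open in all 6 equal lists. With TPA, 171 members (25.0%) had percentiles above both controls, against 14.2% of 8646 gene TSSs open in all equal lists, and 155 (22.7%) had percentiles below both, against 33.6%. With ZnCl2, 159 (23.2%) lay above both controls, against 21.3%, and 133 (19.4%) lay below both, against 19.7%. The median change was 0.124 points in members and -2.97 points in coding TSSs with TPA, and 0.0371 and 0.236 points with ZnCl2.

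The gap between members and coding TSSs was smaller in both TPA libraries than in the other 4. Within each library, the median percentile of the members minus that of the 6236 coding TSSs open in all equal lists was -5.59 and -8.89 points in the control libraries, 1.38 and -0.543 points with TPA, and -4.43 and -5.80 points with ZnCl2. The gap was 7.66 points higher with TPA than in control (exact permutation test, p = 0.333, the smallest p allowed) and 2.13 points higher with ZnCl2 (exact permutation test, p = 0.667). With all regions the TPA difference was 2.92 points, and the ZnCl2 difference turned to -1.09 points with all regions and to -0.562 points with the upper 50% of each list. This gap and its split by base composition were chosen after the data were seen. The median percentile itself was 69.0 and 67.0 in control and 68.8 and 68.6 with TPA for members, and 74.6 and 75.9 in control and 67.4 and 69.1 with TPA for coding TSSs.

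Split by base composition, the difference was larger in promoters that were not CpG-rich. In these (266 members and 891 coding TSSs) the gap was -10.5 and -15.2 points in control, 2.77 and -0.614 points with TPA, and -11.2 and -10.5 points with ZnCl2. The TPA difference from control was 13.9 points (exact permutation test, p = 0.333). The member medians were 62.9 and 58.8 in control and 68.8 and 67.4 with TPA, and the coding medians 73.4 and 74.0 in control and 66.0 and 68.0 with TPA, so that the members were higher and the coding TSSs lower in both TPA libraries than in the controls. In CpG-rich promoters (418 members and 5345 coding TSSs) the gap was -2.60 and -3.90 points in control, -1.38 and 0 points with TPA, and -0.823 and -2.04 points with ZnCl2, a TPA difference of 2.56 points (p = 0.333, exact permutation test).

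**Figure D4:**
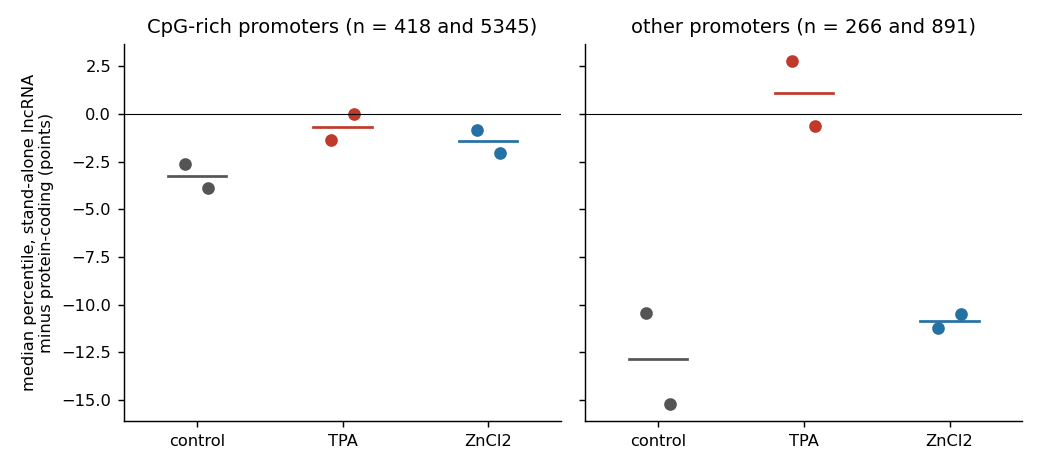
Median percentile of stand-alone lncRNA TSSs minus that of protein-coding TSSs in percentage points (vertical axis) in control, TPA and ZnCl2 libraries, for TSSs open in all 6 equal lists with CpG-rich promoters (left) and other promoters (right); each point is 1 library and each bar the mean of 2. In the right panel the TPA libraries lie at 2.77 and -0.614 points and the other 4 between -15.2 and -10.5.

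The members on the higher side carried another sequence content than those on the lower side. CpG-rich windows made up 48.0% of the 171 members above both controls with TPA and 78.1% of the 155 below. An AP-1 site was in 28.7% of the windows above, 5.16% of those below and 15.1% of the 358 between. In coding TSSs the corresponding shares were 5.48%, 3.52% and 4.25%. A metal response element was in 35.1% of the member windows above and 40.0% of those below. With ZnCl2, an AP-1 site was in 13.8% of the windows above both controls and 15.8% of those below. These shares describe letters in the windows, and no factor binding was measured.

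The single members named next were chosen for large differences after their values were seen, and do not show the usual size of a shift. Over the 684 members, the quartiles of the difference from control were -8.68 and 7.87 points with TPA. With ZnCl2 they were -7.17 and 7.03 points. In equal lists PRKG2-AS1, whose AP-1 site is printed above, had percentiles of 33.9 and 43.2 in control, 72.1 and 72.5 with TPA, and 23.2 and 4.90 with ZnCl2. LINC03081 had 39.9 and 62.5 in control, 88.7 and 88.6 with TPA, and 32.7 and 38.5 with ZnCl2. LINC02098 had 39.9 and 56.6 in control, 70.9 and 88.6 with TPA, and 0 and 9.41 with ZnCl2. In all 3, both TPA values lay above both controls, and both ZnCl2 values lay below them.

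The member with the largest mean difference among those above both controls with TPA, ENSG00000289259, lies outside coding genes on chromosome 11 with its TSS at position 65472267 on the minus strand, between those of NEAT1 (65422774) and MALAT1 (65497640). It had percentiles of 20.3 and 33.8 in control, 80.3 and 66.8 with TPA, and 56.8 and 46.6 with ZnCl2 in equal lists. Both treatments were above control at this TSS, whereas MALAT1 was lower with ZnCl2.

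In the other direction, SCAANT1, an antisense RNA at the ATXN7 locus, had percentiles of 78.9 and 51.8 in control, 0 and 6.37 with TPA, and 54.5 and 51.1 with ZnCl2. LNCRNA-IUR had 78.9 and 76.5 in control, 27.9 and 14.8 with TPA, and 71.3 and 68.0 with ZnCl2. ENSG00000287117 had 93.9 and 88.0 in control, 41.5 and 20.2 with TPA, and 95.2 and 96.4 with ZnCl2. These 3 were lower in both TPA libraries than in any other library, and their windows held 56.7% to 68.3% GC.

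With ZnCl2, LINC01132 had percentiles of 95.9 and 90.1 in control, 94.7 and 95.0 with TPA, and 34.6 and 43.9 with ZnCl2. ALKBH3-AS1 had 89.1 and 73.3 in control, 90.0 and 91.6 with TPA, and 56.8 and 35.2 with ZnCl2. On the higher side, AGAP2-AS1 had 33.9 and 50.4 in control, 8.70 and 22.8 with TPA, and 71.3 and 79.5 with ZnCl2. In each of the 3, the ZnCl2 libraries stood clear of all other libraries. The percentile is a rank within a list and cannot tell a change at one region from a change at the others.

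**Figure D5:**
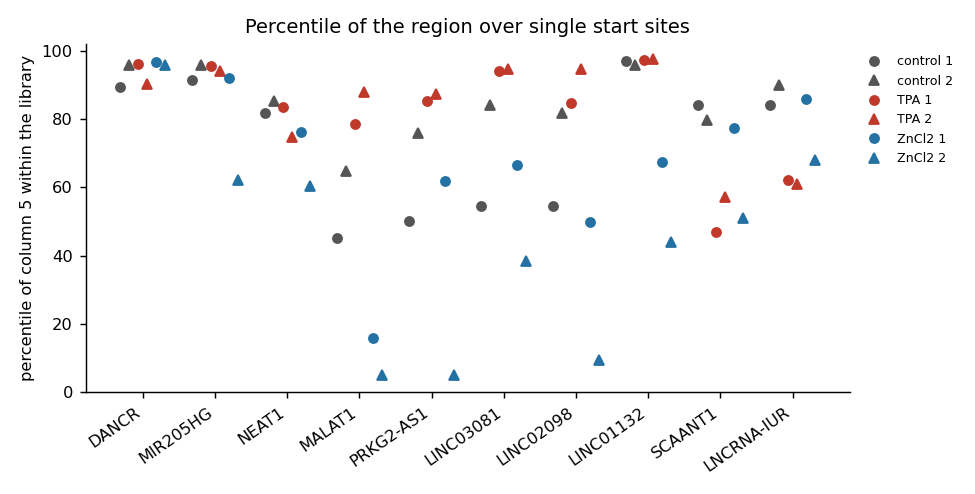
Percentile of the region score within the library (vertical axis, all regions of each list) for 10 stand-alone lncRNA TSSs; each point is 1 library, with circles for replicate 1 and triangles for replicate 2. DANCR lies between 89.3 and 96.6 in all libraries, MALAT1 separates by condition, and SCAANT1 and LNCRNA-IUR are lower in the TPA libraries than in the controls.

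The libraries could be compared by the members open in both as a share of those open in either. With equal lists this share was 69.0% for the 2 control libraries, 72.1% for TPA and 71.7% for ZnCl2. Pairs of a TPA library with a control or ZnCl2 library shared 57.8% to 68.2%, below all 3 of these values. Pairs of a control with a ZnCl2 library shared 67.0% to 71.4% and overlapped them. With all regions, where the lists differ in length, the ranges were 58.6% to 75.9% within a condition and 55.0% to 75.4% across conditions. The pairs share libraries, and the difference was not tested.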

How the data were processed

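The authors trimmed the reads with BBDuk, checked them with FastQC 0.11.8, aligned them to hg38 with HISAT2 2.1.0, sorted and combined the 2 sequencing runs of each library with SAMtools 1.8 and called open regions per library with HMMRATAC, whose version is not given in the sources used here. The deposited lists hold the bounds of each region and a score in column 5, a whole number of at least 30, which the sources used here do not define. Score percentiles and equal lists were used because the deposited scores are not normalised between libraries and no depth is known.

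Regions on chromosomes 1 to 22 and X were joined to GENCODE release 44 TSSs with Python 3.11.15, NumPy 2.4.6 and pandas 2.3.3. Tests were exact permutation tests over libraries (2 against 2) and exact sign-flip tests over 6 within-library differences, two-sided. The 6 sign-flip tests all gave the smallest p allowed, which Benjamini-Hochberg adjustment leaves at 0.0312, and no treatment test could pass 0.05 with or without adjustment. Promoter windows were read from hg38, and repeated pieces were 50 bp pieces found more than once in hg38. RefSeq listing was taken from the RefSeq gene table.

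Named genes were the 12 members open in all libraries with the highest lowest percentile, the 6 gained or lost members with the highest mean percentile in each comparison, and all members of the lists; XIST and TSIX were left out. The members and lists were chosen with earlier results of these data known, and the percentile gap, the splits by base composition and the counts without regions that reach a coding TSS or without repeated pieces were added after the data were seen. A marker gene of the list is not reported here.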

Additional observations from a re-analysis of the deposited data

How the results depend on the processing

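The lower share of stand-alone lncRNA TSSs against the other gene classes kept its direction under every alternative run. So did their lower width and percentile against coding TSSs, taken over the open TSSs of each library. Over TSSs open in all 6 equal lists, however, the member percentile was 1.38 points above the coding one in TPA 1. The size of the differences changed with the lists and members used. Against coding TSSs, the percentile difference was -6.04 points with equal lists and -4.84 with the upper 50% of each list. The width difference was -229 bp with equal lists and -487 bp over 2 kb from coding transcript starts. The share difference was -34.8 points with equal lists and -32.4 with the upper 50%. Leaving out 1 library gave -41.7 to -40.0 points for the share against coding TSSs, -54.8 to -52.8 against lncRNA TSSs near coding genes, -10.5 to -9.17 for the percentile and -338 to -306 bp for the width, each with p = 0.0625, the smallest exact sign-flip p that 5 libraries allow. The treatment differences in share, width and percentile depended on single libraries. Without 1 library the TPA difference ran from -3.04 to 2.56 points in share, -895 to 130 bp in width and -5.10 to 8.68 points in percentile. The ZnCl2 difference ran from -3.71 to 1.89 points, -370 to 665 bp and -15.4 to 5.51 points. With regions within 500 bp of the TSS the TPA difference in share was 0. With equal lists the ZnCl2 difference reversed to 0.444 points in share and 1.92 points in percentile. The TPA percentile gap, chosen after seeing the data, ran from 5.05 to 8.42 points without 1 library and was 2.92 points with all regions and 5.51 with the upper 50% of each list. The ZnCl2 gap ran from 0.479 to 4.16 points without 1 library and reversed to -1.09 with all regions and -0.562 with the upper 50%.

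The 920 members open in all libraries became 485 with the upper 50% of each list and 367 among genes that RefSeq lists, and 921 to 1097 in the 5 libraries that remained when 1 was left out. The RefSeq restriction, which tests fewer genes, gave 9 TPA gains, 14 TPA losses, 5 ZnCl2 gains and 8 ZnCl2 losses. Equal lists gave 99 TPA losses, 60 ZnCl2 gains and 37 ZnCl2 losses, and leaving out windows with a repeated piece left 7 ZnCl2 gains. Without 1 library the counts ran from 42 to 294 for TPA gains, 49 to 482 for TPA losses, 16 to 155 for ZnCl2 gains and 22 to 335 for ZnCl2 losses. TPA gains were 294 without control 2, and TPA losses 482 and ZnCl2 losses 335 without control 1. The cause of these shifts was not tested. Counting 1 region once, leaving out regions that reach a coding TSS, a limit of 5 kb and coding transcript starts each kept all counts within 1.5 times.

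Libraries with the same replicate number did not deviate together: over 1565 members open in 1 to 5 libraries the correlation of their deviations was -0.150 for control and TPA, 0.0239 for control and ZnCl2, and 0.0922 for TPA and ZnCl2. The numbers were therefore not used as pairs. With replicate number as a block, the mean counts per number were 291.5 TPA gains, 329 TPA losses, 341 ZnCl2 gains and 481 ZnCl2 losses, since a single library then stands on each side. In this balanced design the block leaves every difference of means as it was, so that it is no check on them, and 0.5 is the smallest exact p it allows.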
